A study of Malus domestica with 2 samples.

Results

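Genes of the ubiquitin and proteasome system were followed in the pedicels, the stalks of the fruits of a cluster, of apple (Malus domestica). The genes were 134 gene models with proteasome, ubiquitin, cullin or SKP1 in a deposited annotation, of 63541 gene models in the table of the series. Besides these words, they were chosen by measured values: a gene model needed a total count of at least 1 mapped sequence over both libraries (121 genes) or a row on one of the sheets of differing genes that the authors deposited (13 further genes). Models whose annotation also names a ribosomal protein (2) were left out. Of the 239 models with these words in the whole table, 132 had no sequence and no row on a sheet and are not among the 134. RNA was taken from the central pedicel and from the lateral pedicel of the cultivar Saika, described in the series title as self-abscising, and sequenced on a Roche 454 instrument. Each kind of pedicel is represented by 1 library, so no difference below has a replicate check, and any test is between the 2 libraries rather than between pedicels in general.

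Ubiquitin is a small protein that is attached to other proteins in a relay of enzymes. An activating enzyme (E1) charges it, a conjugating enzyme (E2) carries it, and a ligase (E3) chooses the target. In the SCF ligases, a cullin holds a RING protein at one end and a SKP1-like adaptor with an F-box protein at the other. The auxin receptors of the TIR1/AFB family are such F-box proteins, and auxin leads through them to the breakdown of the Aux/IAA repressors named in the series title. Proteins that carry ubiquitin chains are taken apart by the 26S proteasome, a barrel of alpha and beta subunits (the 20S core) capped by a regulatory particle. Deubiquitinating enzymes remove ubiquitin again. Plants also use ubiquitin-like modifiers, among them SUMO.

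Mapped sequences came to 18483 in the central library, on 13544 gene models, and to 18368 in the lateral library, on 13457. The column headers describe the mapped input as contigs, which are sequences assembled from overlapping reads, and the reads that went into a contig are not counted. Similar counts therefore do not show similar expression. Sums of marker genes were small: 23 central and 23 lateral sequences for chloroplast-bearing cells (28 models with a sequence), 11 and 15 for xylem (12 models), 24 and 27 for epidermis (30 models) and 3 and 2 for phloem (3 models). Models with heat shock in an annotation, taken as a sign of RNA handling, held 112 and 104 (95 models). All these lists were found by words of the annotations, such as laccase and cellulose synthase for xylem, or lipid transfer and wax for epidermis. Whether the models found are particular to those cells, or to RNA handling, was not tested. On the authors' sheets most of these marker lists were uneven, as given beside the sheet counts of the members below. The part of tissue makeup and RNA handling in the values below was not tested. In such bulk samples fewer cells of a type and less RNA per cell cannot be told apart.

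Over all 134 genes, 137 sequences were counted in the central library, 0.741% of it (95% exact Clopper-Pearson interval 0.623% to 0.876%). In the lateral library 150 were counted, 0.817% (0.692% to 0.958%). The intervals overlap, and they cover counting error only. No gene had more than 7 sequences over both libraries, and 39 of the 121 detected genes (32.2%) had a single one, against 44.0% of all detected gene models. Detected members were shorter than the detected models as a whole, with median lengths of 1161 and 1353 bases. A count of 0 in a library allows a share of up to 0.0162% (central) or 0.0163% (lateral), the weight of 3 sequences.

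Ubiquitin itself and its relatives came to 19 genes, of which 16 had a sequence, with 22 sequences in the central library (95% exact Poisson interval 13.8 to 33.3) and 20 in the lateral (12.2 to 30.9). Of the 8 genes annotated with the ubiquitin domain, MDP0000160122 had the most sequences, 3 central and 2 lateral. MDP0000291439 had 2 and 2, and MDP0000361173 had 2 and 1. MDP0000677448 was seen in the central library only, with 2 and 0. The gene matched to Arabidopsis ubiquitin extension protein 1, MDP0000287424, had 1 and 1. In Arabidopsis that gene encodes ubiquitin joined to a ribosomal protein. A gene matched to polyubiquitin 10, MDP0000121149, had 0 and 1. Polyubiquitin genes encode head-to-tail repeats of ubiquitin. Among the ubiquitin-like genes, MDP0000283456 had 3 and 3 sequences, and ubiquitin related modifier 1, MDP0000267569, had 1 and 1. The counts of this class thus differed by at most 2 sequences for any gene.

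The E1 step was represented by 2 genes with the repeat of ubiquitin-activating enzymes. MDP0000141494 had 0 central and 2 lateral sequences, and MDP0000699025 had 1 and 1. Both had all their sequences mapped uniquely.

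E2 conjugating enzymes were the largest class, with 45 genes, 40 of them with a sequence. They held 36 central (25.2 to 49.8) and 45 lateral (32.8 to 60.2) sequences, and the intervals overlap. Of these genes, 16 had a higher count in the central library, 17 a higher one in the lateral library, and 7 had equal counts. The gap of MDP0000243556, 2 central and 5 lateral sequences, was as wide as any among the 134 genes. MDP0000132983 had 1 and 3, whereas MDP0000010249 and MDP0000205182 each had 3 and 1. Counts of E2 genes thus differed in both directions, as those of all detected gene models did. Most are annotated by a fold shared between E2 enzymes and RWD domains, so some may be no E2 enzyme.

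Genes of cullins, SKP1-like proteins and annotated E3 ligases came to 8, with 9 sequences in each library (4.12 to 17.1). The 2 ligases with the DUF908 region were the longest genes of the system. MDP0000318443, of 10890 bases, had 3 central and 3 lateral sequences, and MDP0000317971, of 10764 bases, had 2 and 2. Cullins are the scaffolds of the SCF and related ligases. The gene matched to cullin 1, MDP0000822317, had 1 and 0 sequences, and a cullin with the N-terminal region, MDP0000321249, had 1 and 1. Of the SKP1-like genes, MDP0000273940 had 1 and 1, MDP0000255887 had 1 and 0, and MDP0000259683 and MDP0000784692 each had 0 and 1. No gene in this class differed by more than a single sequence.

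The proteasome core was represented by 14 genes, 10 of them with a sequence, and by 10 central (4.80 to 18.4) and 14 lateral (7.65 to 23.5) sequences. MDP0000143951, matched to the alpha subunit PAB1, had 1 and 3 sequences. MDP0000291481, matched to alpha subunit G1, had 2 and 2. MDP0000670895, matched to alpha subunit F1, had 1 and 1. Of the detected core genes, 5 had more sequences in the lateral library, 2 more in the central, and 3 equal counts, and 3 were seen in the lateral library only. The regulatory particle had 3 genes with 2 central and 3 lateral sequences in all. They are MDP0000127633 (1 and 1) and 2 copies of Rpn7, a subunit of the lid. MDP0000127633 is annotated as a regulatory subunit of the proteasome or the cyclosome, a ubiquitin ligase of the cell cycle, so it may not belong to the proteasome. Assembly factors and inhibitors had 1 and 1 sequences, with 1 central sequence from PI31, MDP0000275079, that also mapped elsewhere, and 1 lateral sequence from UMP1, MDP0000180351. UMP1 helps to assemble the core in yeast, and PI31 was named for inhibiting it in mammalian extracts.

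A further 24 genes are annotated only by the PCI domain, which is shared by the proteasome lid, the COP9 signalosome and the translation factor eIF3. They held 38 central (26.9 to 52.2) and 34 lateral (23.5 to 47.5) sequences. MDP0000251636 and MDP0000275270, each with 3 and 0, had the widest gaps toward the central library among the 134 genes. MDP0000301440 had 3 and 4, MDP0000238047 had 2 and 4, and MDP0000291524 and MDP0000523734 each had 3 and 3. For MDP0000523734, 1 sequence of each library mapped uniquely. The annotation does not say to which of the complexes these genes belong, so their counts are kept apart from those of the proteasome.

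Deubiquitinating enzymes came to 13 genes with 15 central (8.40 to 24.7) and 18 lateral (10.7 to 28.4) sequences. MDP0000120371, matched to ubiquitin-specific protease 5, and MDP0000164366, which shares its DUSP domain, each had 3 and 2. MDP0000382714 and MDP0000283283, both with the peptidase C19 domain, each had 0 and 2, and no sequence of MDP0000283283 mapped uniquely. None of the 13 had equal counts, with 6 higher in the central library (46.2%) and 7 in the lateral (53.8%). Over all detected gene models, 28.4% had equal counts, 36.2% were higher in the central library and 35.4% in the lateral. The difference from these shares was not tested. The last 3 genes, among them ubiquitin fusion degradation 1 (MDP0000123018), a cofactor of the unfolding ATPase CDC48, and a Cue protein that binds ubiquitin (MDP0000709727), each had 1 and 1.

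**Figure D1:**
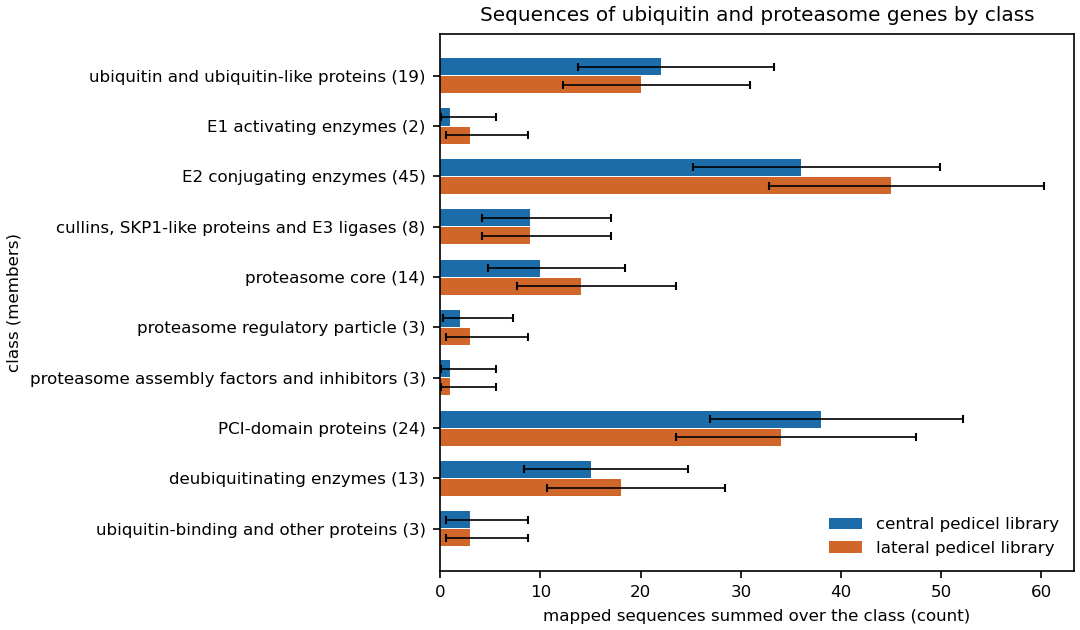
Mapped sequences summed over each class (horizontal axis, count) in the central and the lateral library, with the number of genes in parentheses and 95% exact Poisson intervals as black lines. The intervals of the 2 libraries overlap in all 10 classes; E2 conjugating enzymes reach 36 and 45 sequences.

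Scaled by gene length, as deposited in RPKM (the count divided by gene length and by the library total), the order was led by short genes. MDP0000134903, a ubiquitin-like gene of 461 bases, had 235 RPKM (central) and 236 RPKM (lateral) from 2 sequences in each. MDP0000010249, an E2 of 540 bases, had 300.6 and 100.8 RPKM from 3 and 1. MDP0000361173, a ubiquitin gene of 460 bases, had 235 and 118 RPKM from 2 and 1. These neighbours in the order differ by a single sequence or less per library and cannot be ranked at this depth.

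Set against each other gene by gene, the libraries shared 64 of the 121 detected genes (52.9%), while 27 (22.3%) were seen only in the central library and 30 (24.8%) only in the lateral. Over all 18337 detected gene models the same shares were 47.2%, 26.6% and 26.1%. With genes matched by the sheet annotation alone left out, 103 members remained, and their shares were 48.5%, 25.2% and 26.2%. The median log2 ratio, lateral over central with 0.5 added to each count, was 0.01 for the 121 genes and 0.01 for all detected gene models. In both sets the median falls on genes with equal counts, so it gives only the ratio of the library totals. A difference of at least 2-fold on that scale was reached in the lateral direction by 33 genes (27.3%), where the background was 27.9%. In the central direction it was reached by 29 genes (24.0%), against 28.3%. Among the 103 genes the shares were 28.2% in the lateral and 27.2% in the central direction. These shares lie near or below the background, and 1 sequence against 0 already passes this fold. With at least 3 sequences required, 3 genes passed in the lateral and 4 in the central direction.

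No member had the 10 sequences set as the minimum for the test on counts, so none was tested there (0 of 24 models). Without a minimum, none of the 121 genes was called by the two-sided Fisher exact test with Benjamini-Hochberg adjustment over all 18337 models, where 0.0% were called. None had an unadjusted p under 0.05 (0 genes), against 4 gene models of the whole table. The smallest unadjusted p among members was 0.248, shared by 13 genes with 0 central and 2 lateral sequences. At a minimum of 10 the share called was also 0.0%. By edgeR's negative binomial exact test 0 of those 24 models had an unadjusted p under 0.05. With at most 7 sequences for a gene, the test could not have called a member at any split, so it leaves their difference untested. The authors' deposited table, by Kal's Z-test, gave an FDR under 0.05 to 44 of the 121 genes as higher in the lateral library (36.4%) and to 36 as higher in the central (29.8%). Over all detected gene models those shares were 33.7% and 34.0%. Of the members' calls in that table, 23 have a sequence in both libraries, and the rest are genes seen in a single library, 39 of them by 1 sequence.

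**Figure D2:**
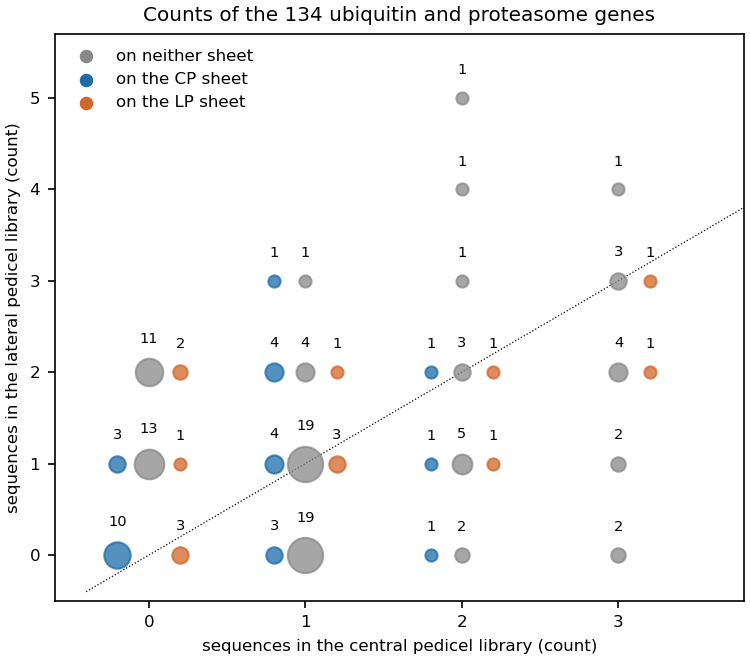
Counts of the 134 genes in the central (horizontal axis) and lateral (vertical axis) library; the number beside each point is the number of genes with that pair of counts, colour gives the authors' sheet, and points of the sheets are shifted sideways for clarity. The dotted line marks equal counts; 13 sheet genes lie at 0 and 0, and MDP0000243556 lies farthest above the line with 2 and 5.

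The authors' sheets of differing genes, headed CP and LP and made with NOISeq per the file headers, hold 28 and 14 of the 134 genes. A row on a sheet was one of the ways to enter the set, so these counts are a description. Of the 18686 gene models with a sequence or a row, 4.52% were CP entries and 3.97% LP entries. The 27 genes that matched by the sheet annotation alone are on a sheet by construction. Among the 103 detected genes that matched in the whole table, 7 were CP entries (6.80%) and 4 were LP entries (3.88%). The background over all detected models was 3.57% and 3.17%. Most marker lists were split unevenly between the sheets. Genes of chloroplast-bearing cells (33 models) had 8 CP and 18 LP entries, and epidermis (34 models) 11 and 2. Xylem (13 models) had 1 and 5, and heat shock genes (96 models) 8 and 2. Phloem, with 3 models, had 1 and 2. Any marker that matched by the sheet annotation alone is likewise on a sheet by construction. The part of the markers in the members' split was not tested. The highest deposited FDR of a member was 1.04e-04 among CP entries (MDP0000127609, beta subunit C1) and 6.52e-06 among LP entries (MDP0000283456). Over all entries the highest were 1.72e-04 and 4.78e-05.

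The CP sheet lists 8 of the E2 conjugating enzymes, and the LP sheet 1. The CP entries were matched to Arabidopsis ubiquitin-conjugating enzymes 18, 34, 5 (2 copies), 27 (2 copies) and 28 (2 copies). Both copies of enzyme 5 had sequences, MDP0000184641 with 1 central and 2 lateral and MDP0000924890 with 1 and 0. One copy of enzyme 28, MDP0000222113, had 1 and 0. The other 5 CP entries of this class had no sequence in either library. The LP entry, enzyme 10 (MDP0000140755), had 0 and 2 and a deposited FDR of 2.69e-09.

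Core proteasome genes had 7 entries on the CP and 3 on the LP sheet. On the CP sheet were alpha subunit F1 (MDP0000670895, deposited log2 ratio 2.51, FDR 0), PAB1 (MDP0000143951), beta subunit G1 (MDP0000155770), PBB2 (MDP0000014145) and 3 entries of beta subunit C1. PBB2 belongs to the beta subunits with a catalytic site. On the LP sheet were alpha subunit G1 (MDP0000291481, FDR 3.09e-14), beta subunit D2 (MDP0000137279) and another beta subunit G1 (MDP0000459098). In counts, the CP entry PAB1 had 1 central and 3 lateral sequences, beta subunit G1 had 1 and 2, and alpha subunit F1 had 1 and 1. None of these 3 had more in the central library. Of the beta subunit C1 entries, MDP0000239642 had 2 and 1, and the whole table annotates it as a RING/FYVE/PHD-type zinc finger, so its identity is uncertain. The core maturation factor UMP1 (MDP0000265787) was on the CP sheet with a deposited log2 ratio of 2.24 and no sequence in either library.

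Ubiquitin and ubiquitin-like genes had 5 CP and 6 LP entries. Polyubiquitin 10 (MDP0000121149, FDR 8.84e-12) was on the CP sheet, and ubiquitin extension protein 1 (MDP0000287424, FDR 3.59e-06) and ubiquitin-like protein 5 (MDP0000366240) were on the LP sheet. The ubiquitin-like gene MDP0000538645, on the LP sheet, had the deposited log2 ratio farthest from 0 among members, -3.51. Its counts were 0 central and 2 lateral, and both sequences also mapped elsewhere. Its copy MDP0000262888, matched to the same Arabidopsis gene and also 507 bases long, was on the LP sheet with no sequence. How sequences were divided between such copies is uncertain, and the sequences of the copies were not compared.

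Deubiquitinating enzymes had 1 CP and 3 LP entries. Ubiquitin-specific protease 5 (MDP0000120371) was an LP entry (deposited log2 ratio -2.13), while its counts were 3 central and 2 lateral. The C19-related protein MDP0000220016 was on the LP sheet with 2 and 1. Its sheet annotation calls it related to the ubiquitin-specific proteases, so it may be no protease itself. Both of these LP entries thus had more sequences in the central library. Of the ligase subunits, cullin 1 (MDP0000822317, FDR 7.95e-06) and a BTB/POZ protein that the whole table annotates as an SKP1 component (MDP0000784692, FDR 2.42e-11) were on the CP sheet and none on the LP sheet (0 entries). Also on the CP sheet were the PCI gene MDP0000130979, with 2 and 0 sequences that both also mapped elsewhere, ubiquitin fusion degradation 1 and the Cue protein. The E1 genes were on neither sheet (0 entries).

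**Figure D3:**
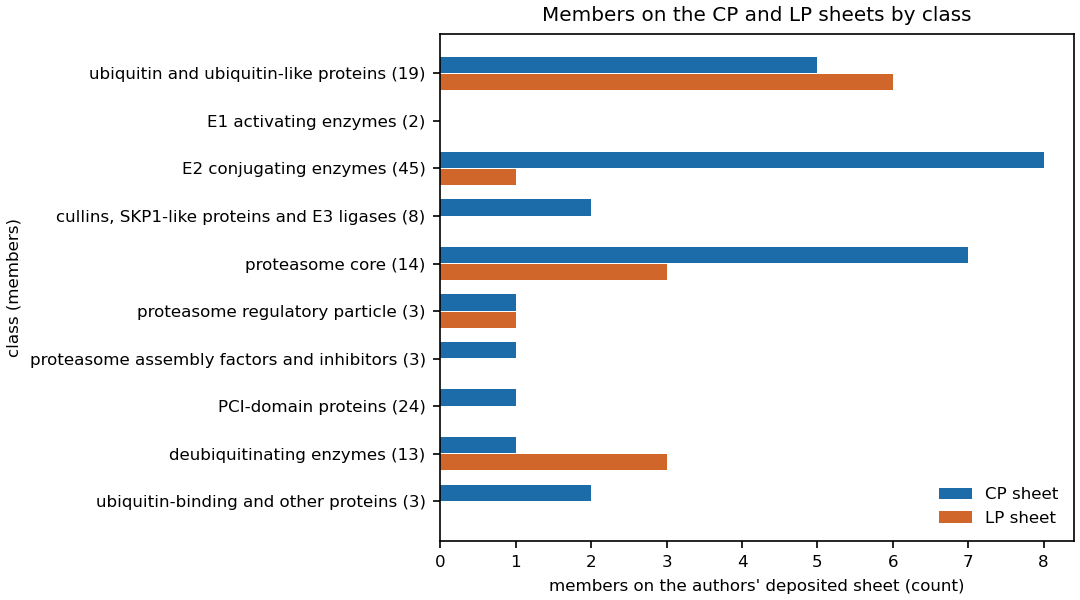
Number of genes of each class on the authors' deposited CP and LP sheets (horizontal axis, count), with the number of genes of the class in parentheses. E2 conjugating enzymes (8 and 1) and the proteasome core (7 and 3) have more CP entries; deubiquitinating enzymes (1 and 3) have more LP entries.

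Several of these genes are present in the apple genome models as copies matched to a single Arabidopsis gene. The 42 sheet entries matched 31 Arabidopsis genes, and 10 of those had more than 1 entry. For 4 of the 31 (12.9%) the copies were split between the sheets, against 48 of 1336 (3.59%) over all entries. Among matches with more than 1 entry, 4 of 10 were split for members and 48 of 136 (35.3%) over all entries. The split copies were beta subunit G1, Rpn7, ubiquitin-specific protease 12 and small ubiquitin-like modifier 2. Beta subunit G1 had 1 central and 2 lateral sequences in its CP copy (MDP0000155770), and 0 and 1 in its LP copy (MDP0000459098), whose sequence also mapped elsewhere. Rpn7 had 0 and 1 in its CP copy (MDP0000180322), a sequence that also mapped elsewhere. Its LP copy (MDP0000211280, deposited log2 ratio -2.10, FDR 1.85e-11) had 1 and 1. Ubiquitin-specific protease 12 had 1 and 2 in both its CP copy (MDP0000546823) and its LP copy (MDP0000254494). The SUMO gene had no sequence in its CP copy (MDP0000506508), and 1 and 1 in its LP copy (MDP0000261220), neither mapped uniquely. The counts of the copies thus differed by at most a single sequence per library, and which copy a sequence without a unique place came from is uncertain. Of the 121 detected genes, 14 (11.6%) had no uniquely mapped sequence, the same share as among all detected gene models (11.6%).

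The names of the sheets were then set beside the counts. Of the 28 CP genes, 5 had higher counts in the central library, 8 higher counts in the lateral library, 5 equal counts and 10 no sequence. Of the 14 LP genes, 2 were higher in the central library and 4 in the lateral, 5 were equal and 3 had no sequence. Over all 844 CP entries, 34.0% were higher in the central library and 16.2% in the lateral, where the members had 17.9% and 28.6%. Over all 741 LP entries the shares were 15.7% and 31.4%, and those of the members 14.3% and 28.6%. The CP genes of the ubiquitin and proteasome system thus did not lean to the central library in counts as the CP sheet as a whole did, and the difference was not tested. They held 18 central and 21 lateral sequences in all. Only 5 members have a deposited log2 ratio, positive for the 2 on the CP sheet and negative for the 3 on the LP sheet. The file states these ratios as lateral over central, which is opposite to the sheet names, so the signs are given as deposited and not read as a direction.

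**Figure D4:**
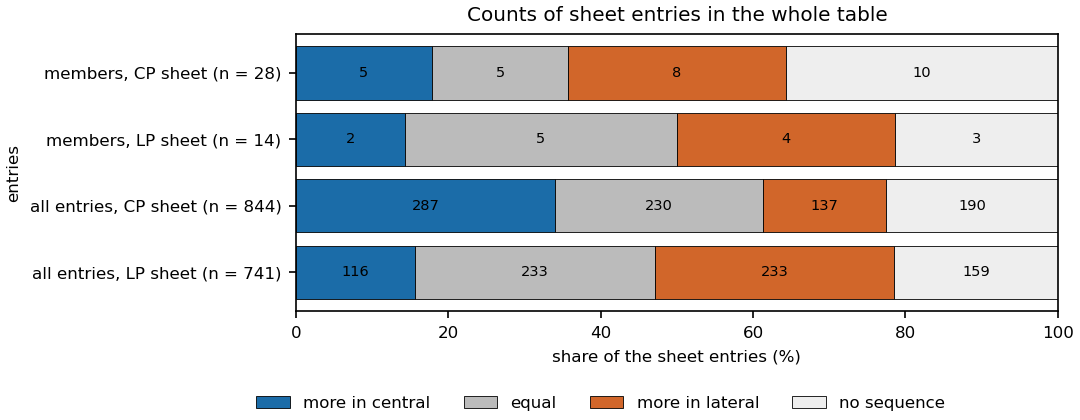
Share of sheet entries (horizontal axis, %) with more sequences in the central library, equal counts, more in the lateral library, or no sequence, for members and for all entries of the CP and LP sheets; numbers in the bars are entries. Members on the CP sheet have 5 genes with more central and 8 with more lateral sequences, and all CP entries have 287 and 137.

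Gene length moved with the deposited FDR. The 164 CP entries with an FDR of 0 had a median length of 540.5 bases, and the 680 others 846 bases. On the LP sheet the medians were 699 bases (183 entries) and 984 bases (558 entries). Members showed the same order, with 582 bases for the 4 CP genes at an FDR of 0 and 805.5 bases for the other 24. On the LP sheet the medians were 507 bases for 2 genes and 931.5 bases for the other 12. Those 2 LP genes, MDP0000262888 and MDP0000538645, are copies matched to the same Arabidopsis gene. The part of length in which genes reached the sheets was not tested.

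Other genes of the pathway were counted from their annotations, the 134 genes left out. Those found by the sheet annotation alone are on a sheet by construction. The sheet counts and 2-fold shares of these lists are therefore a description. Of all models with a sequence or a row, 4.52% were CP and 3.97% LP entries. F-box proteins, the target-choosing subunits of SCF ligases, held 68 central (52.8 to 86.2) and 65 lateral (50.2 to 82.8) sequences over 61 detected genes. Of these, 15 (24.6%) were at least 2-fold higher in the lateral library and 20 (32.8%) in the central, against the backgrounds of 27.9% and 28.3%. Each sheet held 4 of the 62 F-box models. Auxin F-box protein 5 (MDP0000809218), of the auxin receptor family, was an LP entry (deposited FDR 3.09e-14), and its counts were 5 central and 2 lateral. RING or U-box proteins, a group with many ubiquitin ligases, held 136 central (114 to 161) and 105 lateral (85.9 to 127) sequences over 125 detected genes. At least 2-fold higher were 34 (27.2%) in the lateral and 47 (37.6%) in the central library, against 27.9% and 28.3%. Of the 131 models of this list, 14 were on the CP and 12 on the LP sheet. Many of these entries matched by the sheet annotation alone, and they also enter the 2-fold shares. RING-box 1 (MDP0000124128), the RING subunit that cullins hold, was on the LP sheet without a sequence in either library, while cullin 1 was on the CP sheet. BTB/POZ proteins, some of which serve as adaptors of cullin 3, held 55 and 51 sequences over 51 genes, with 2 CP and 3 LP entries. COP9 signalosome subunit 6A (MDP0000232822), of the complex that removes the NEDD8 modifier from cullins, was on the LP sheet with 1 and 1 sequences. A CDC48 gene (MDP0000197068) was on the CP sheet without a sequence. The words for autophagy found 2 genes outside the 134, with 3 central and 2 lateral sequences and no entry on a sheet (0 entries). Autophagy genes annotated in other words, or among the 134, are not in this count. SUMO-activating enzyme 1A (MDP0000204446) was on the CP sheet with 0 and 1.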

How the data were processed

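Per the labels' protocols, messenger RNA of pedicel tissue was made into cDNA libraries and pyrosequenced. The authors deposited, per the file headers, whole-number counts of sequences per gene model (all and uniquely mapped), RPKM and gene length, with trimmed contigs as input. Another 12 per-library columns of that table stayed unused. The p-value and FDR columns are the authors': Kal's Z-test in the whole table and, per the file headers, NOISeq on the sheets. The log2 ratios were deposited separately for 215 genes. How contigs were assembled and aligned, and to which gene models, is not given in the sources used. As 0 members could be matched to RefSeq gene names, neither coordinates nor sequences are printed.

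The genes, their classes and the lists were chosen with earlier results of these data known. Classes follow words of the annotations; PCI-domain genes were set apart, PI31 moved and the ligase classes joined by hand. The genes named by rule are up to 30 members on the sheets (those with a deposited ratio, then by lowest FDR) and the 10 with the most sequences. Examples were added for a class that would otherwise have none. Others were chosen after their values were seen: the copies split between the sheets, cullin 1, ubiquitin extension protein 1, the C19-related protein, the PCI genes seen in 1 library, ubiquitin fusion degradation 1, the genes of highest RPKM and the genes outside the members. The same holds for any other gene named, such as MDP0000132983, MDP0000205182, MDP0000677448, MDP0000382714 and MDP0000283283.

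Counts were tested with a two-sided Fisher exact test per gene model over the whole table, calling an adjusted p under 0.05 with a fold of at least 2, at a minimum of 10 sequences. The log2 ratios computed here add 0.5 to each count and scale by library total. edgeR's negative binomial exact test assumed biological coefficients of variation of 0.2 and 0.4, since a quasi-likelihood test cannot be fitted to 1 library per group. Intervals and limits cover counting error only, and contigs of one transcript are not independent. Tools were R 4.3.3 with edgeR 4.0.16, and Python 3.11.15 with scipy 1.17.1, numpy 2.4.6, pandas 2.3.3 and matplotlib 3.10.9.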

Additional observations from a re-analysis of the deposited data

How the results depend on the processing

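Of 52 alternative values, 41 stayed within the range set for them and 11 moved out of it. A reversal of direction was not among the outcomes checked. No member was called in any of the 5 alternative tests (0 genes). At a minimum of 10 sequences none was tested. Without a minimum or at a minimum of 5, no member had enough sequences to be called at any split. These 5 values are among the 41 and say nothing about stability. Genes past 2-fold, 33 lateral and 29 central, fell to 16 and 7 with at least 2 sequences and to 3 and 4 with at least 3, and were 13 and 5 at 4-fold. With a pseudocount of 1 the central count was 5, since 1 sequence against 0 and 3 against 1 then fall just short of 2-fold in that direction. Sheet members, 28 CP and 14 LP, were 17 CP at a deposited FDR under 1e-06, 18 CP among genes with a sequence, and 10 CP and 5 LP by the annotation of the whole table alone. That last setting and the one without PCI-domain genes were chosen after seeing the data. The median log2 ratio falls on genes with equal counts, so its 10 alternatives, 0.00 to 0.01 and among the 41, could hardly move it and show nothing about stability. No paired analysis was possible because each group has 1 library.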

Other observations

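A pair of genes left out by the rule, MDP0000315920 and MDP0000501162, are annotated as ribosomal protein S27a joined to ubiquitin, another of the fusions from which plants release ubiquitin. Both were on the CP sheet with a deposited FDR of 0. MDP0000315920 had no sequence in either library, and MDP0000501162 had 0 central and 1 lateral sequences. The fusion gene among the members, ubiquitin extension protein 1, was on the LP sheet.

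The SUMO gene MDP0000506508 and the SKP1 component gene MDP0000784692, both on the CP sheet, have the same deposited FDR of 2.42e-11 and the same length of 297 bases, although the first had no sequence and the second had 0 central and 1 lateral.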
